A study of Carassius auratus with 5 samples.

Results

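Calmodulin is a small calcium sensor that binds calcium through EF-hand loops and then switches other proteins on or off, among them the calmodulin-dependent kinases and the phosphatase calcineurin. It is abundant in neurons, where it couples calcium entry at synapses to enzyme activity, and vertebrates encode nearly the same protein from several genes. The clones described here are the 29 cDNA clones, each spotted in duplicate on a goldfish array, whose descriptions named calmodulin or a calm gene and none of its kinases, binding proteins or relatives, out of 8102 clones in all. The files described 1 of them as calm1b (clone 02k06), 1 as a fragment of Calmodulin A (27c21) and 27 as calmodulin (CaM) with no gene number. The RefSeq gene table of goldfish lists 4 calm symbols (calm1a, calm2b, calm3a and calm3b), and the files do not say which gene each of the 27 came from. Clones of near-identical transcripts can bind the same RNA, so the 29 are not independent genes.

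RNA came from the telencephalon, the forebrain region, of sexually mature female goldfish. On each of 5 two-color arrays, the RNA of 1 independent group of fish kept in water that held 50 µg/L fadrozole was set against a pool of unexposed fish shared by all arrays. Exposed RNA carried the dye Cy3 and control RNA the dye Cy5. Fadrozole blocks aromatase, the enzyme that turns androgens into estrogens and that is abundant in radial glia of the fish forebrain. The arrays are called replicates 1 to 5, from slides 4, 14, 22, 33 and 44, and the comparison asks which transcripts differ after exposure. All 5 arrays ran in the same dye orientation, so dye and treatment cannot be told apart, and the single control pool leaves out the spread among unexposed fish. Values are log2 ratios of fadrozole over control, with a negative value for a lower signal in exposed fish, given as mean ± SD over the 5 arrays.

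The median spot intensity was 60.6 to 92.6 scanner units for control RNA and 121 to 380 for fadrozole RNA, higher for fadrozole on each array. Medians of the 336 empty spots were 0 to 52.3 and 98.0 to 310 in the same order. Neuron marker clones (SNAP-25, synucleins, synaptotagmin, stathmin, neurofilament) summed to 3520 to 10339.5 units over 33 clones for control RNA and to 6126 to 21258 for fadrozole RNA. Of these, 4 stood above the 95th percentile of the empty spots on all 5 arrays for control RNA and 3 for fadrozole RNA. The 37 muscle marker clones summed to 3633 to 11192 and 7347 to 29909 units in the same order, and 6 and 4 of them did so. Of 33 ependymin clones, 31 and 25 did so. Of 18 globin clones and 3 pituitary hormone clones, 0 stood above the empty spots on all 5 arrays in either channel. Aromatase-bearing radial glia were represented by 10 clones, of which 1 did so. With 5 arrays, the precision of each value is limited by their number.

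The calmodulin clones leaned to the lower side in fadrozole. The mean ratio lay below 0 for 23 of the 29, or 79.3%, where 51% of the 8081 tested clones did so, and the median of the 29 means was -0.12 against -0.0031 for all tested clones. Averaged over the 29 clones, the ratio was -0.07, -0.26, -0.12, -0.15 and -0.17 on replicates 1 to 5, or -0.15 ± 0.07. It was below 0 on each array, with 18 to 22 of the clones below 0 on an array and 102 of the 145 single values below 0. The clones were proposed with these values known, so the lean describes the set and is not tested. In a bulk sample, fewer cells that express calmodulin and less calmodulin RNA per cell cannot be told apart.

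By limma's moderated test over all 8081 tested clones, 2 of the 29 were called at an adjusted p under 0.05, both lower, and 0 were called higher. The same rule called 2% of all tested clones, 1.61% lower and 0.396% higher. At an unadjusted p under 0.05, 12 calmodulin clones were lower and 1 was higher, where 8.06% and 6.3% of all tested clones were. Ratios below 0 on all 5 arrays were found for 9 of the 29 against 7.67% of all tested clones, and ratios above 0 on all 5 arrays for 1 against 7.15%. Since the set was chosen from this contrast, nothing is read from these shares.

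**Figure D1:**
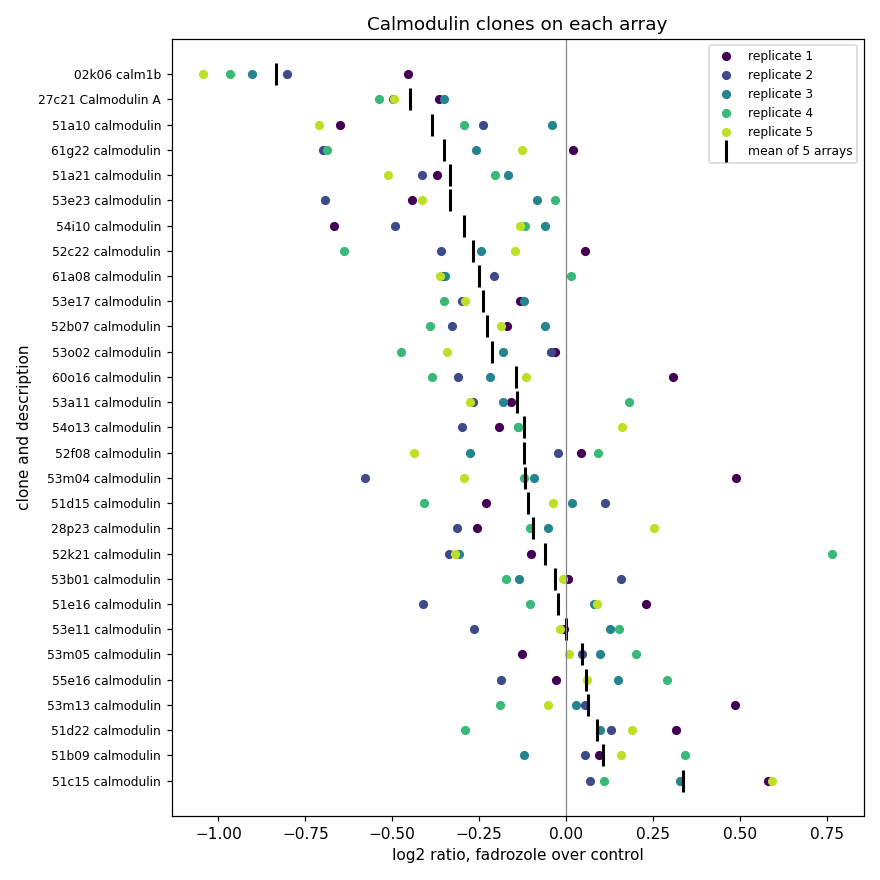
Each row is 1 calmodulin clone, the points are its log2 ratios of fadrozole over control on the 5 arrays, and the black bar is their mean. The row of calm1b lies apart at the top with a mean of -0.83, most rows sit left of 0, and 51c15 at the bottom has all 5 points right of 0.

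The lowest clone was calm1b (02k06). Its log2 ratios were -0.45, -0.80, -0.90, -0.97 and -1.04 on replicates 1 to 5. All 5 lay below 0, and replicate 1 was the mildest. The mean of -0.83 ± 0.23 is 1.78-fold lower, with an adjusted p of 0.0152 by limma over all tested clones. The spot intensities were 439, 639, 342, 194 and 552 in the control channel and 513, 588, 546, 328 and 204 in the other. The control signal exceeded the 95th percentile of the empty spots on 5 arrays and the fadrozole signal on 4. The ratios are those left after each array was normalized over all its clones, since the fadrozole channel had the higher median on each array. The duplicate spots gave -0.79 and -0.88, so the low value was shared by both prints of the clone.

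The calm1b clone was printed from source plate 02, whose 384 tested clones had a median of -0.35 ± 0.15. No other calmodulin clone came from plate 02 or from plate 04, a plate that earlier results of these data showed to be shifted as well. Relative to the median of its plate on each array, calm1b stood at -0.48 ± 0.32 and below the plate on all 5 arrays. With every plate centered on its median, its adjusted p by limma became 0.175 and it was no longer called. It also lost its call without replicate 2 (adjusted p 0.0754) and without replicate 3 (0.0779), with means of -0.84 and -0.82. The plate's part in the value was not tested beyond this centering. The described clones with the most similar 5 ratios all came from plate 02 as well. They were odc1 (02g18, ornithine decarboxylase) with a root mean square difference of 0.224, a clone with no gene name (02k05) with 0.247, bactin1 (02k04, beta actin) with 0.307, atp1a3b (02m06, a sodium pump subunit) with 0.315 and tubb2 (02d05, beta tubulin) with 0.316.

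Calmodulin A (27c21) was the other clone called, and its plate was not shifted. Its ratios were -0.37, -0.50, -0.35, -0.54 and -0.50 on replicates 1 to 5. They lay close together, and their SD of 0.09 was the smallest of the 29 clones. The mean of -0.45 is 1.37-fold lower (adjusted p 0.0223, limma), and the median of plate 27 was 0.02 ± 0.02. Control intensities were 464, 1096, 620, 351 and 698, and fadrozole intensities 554, 1226, 1260, 597 and 349. Both channels exceeded the empty spots on every array. The duplicate spots gave -0.33 and -0.58. The call was kept without replicate 4 alone (adjusted p 0.0461). It was lost without replicate 1 (0.0878), replicate 2 (0.0884), replicate 3 (0.0816) or replicate 5 (0.0573), while the mean stayed between -0.47 and -0.43. Leaving plates 02 and 04 out of the fit kept the value and raised the adjusted p to 0.104. With each plate centered, its mean was -0.48 and its adjusted p by limma was 0.100, so its call was lost there too. Median centering (0.0704), print-tip loess (0.0580) and the authors' deposited values (0.111) also removed its call. It passed the threshold in 7 of 19 alternative processings, and calm1b (02k06) in 11 of 18. Without background subtraction, the adjusted p was 0.0564 for calm1b (02k06) and 0.0677 for Calmodulin A, and with the empty-spot level subtracted their means were -1.39 and -0.60 with an adjusted p of 0.407 each.

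None of the other 27 clones was called, and 0.0768 was the lowest adjusted p among them. That was 51a21, with ratios of -0.37, -0.41, -0.17, -0.21 and -0.51 and a mean of -0.33 ± 0.14. Its neighbor in rank, 51a10, gave -0.65, -0.24, -0.04, -0.29 and -0.71, a mean of -0.39 ± 0.28 (adjusted p 0.122, limma). Both clones were below 0 on all 5 arrays, and 51a10 came close to 0 on replicate 3. The mean of 51a10 was the lower of the pair, and its SD was the larger.

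The clone 61g22 gave 0.02, -0.70, -0.26, -0.69 and -0.13, a mean of -0.35 ± 0.33. It was low on replicates 2 and 4 and near 0 on replicate 1. Clone 53e23 gave -0.44, -0.69, -0.08, -0.03 and -0.41, a mean of -0.33 ± 0.27, and its duplicate spots differed, at -0.08 and -0.59. The next 6 clones in rank (54i10, 52c22, 61a08, 53e17, 52b07 and 53o02) had means of -0.29 to -0.21, and 54i10, 53e17, 52b07 and 53o02 of these were below 0 on every array. The mean of 16 of the 29 clones lay within 1 of their own SDs of 0.

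The clone 51c15 stood on the other side. Its ratios were 0.58, 0.07, 0.33, 0.11 and 0.59 on replicates 1 to 5, a mean of 0.33 ± 0.25, or 1.26-fold, and did not pass the test (adjusted p 0.147, limma). It was above 0 on every array and well above on replicates 1, 3 and 5. Control intensities were 548, 746, 465, 609 and 615, and fadrozole intensities 1101, 1200, 1585, 1345 and 634. Both channels exceeded the empty spots on every array, and the duplicate spots gave 0.30 and 0.37. It shares plate 51 with the low clones 51a10 and 51a21, and that plate had a median of 0.01 ± 0.02. Calmodulin clones with the same description and the same plate thus ranged from -0.39 to 0.33. The mean stayed above 0 in 19 of 19 alternative processings, between 0.22 and 0.40, and passed the threshold in 0.

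The clones next below 51c15 were dim. Clone 51b09 gave 0.09, 0.05, -0.12, 0.34 and 0.16, a mean of 0.11 ± 0.17. Clone 51d22 gave 0.32, 0.13, 0.10, -0.29 and 0.19, a mean of 0.09 ± 0.23. Neither stood above the empty spots on any array in either channel. This held for 6 of the 29 clones, whose means lay between -0.03 and 0.11, and for these the ratio compares signals within the range of empty spots. The remaining clones with means above 0 were 53m13, 55e16 and 53m05, at 0.06, 0.06 and 0.04, and only 53m13 passed the empty spots, in the fadrozole channel on 2 arrays.

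**Figure D2:**
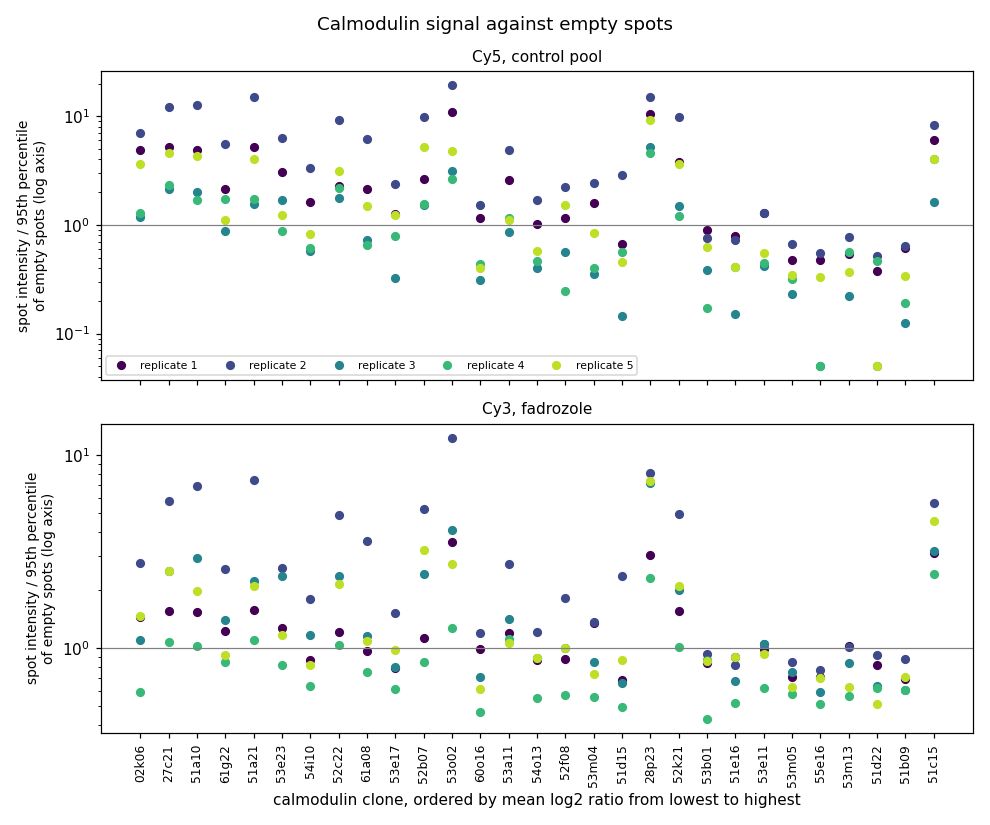
Intensity of each calmodulin clone divided by the 95th percentile of the 336 empty spots of the same array, on log axes. The control channel is at the top and the fadrozole channel at the bottom, and quotients below 0.05 are drawn at 0.05. Clones are ordered by mean ratio from left to right, and the line marks the empty-spot percentile: 51b09 and 51d22 lie below it throughout, while 51c15 and 28p23 lie above it in both channels on all 5 arrays.

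Signal above empty spots differed among the clones of the set. The number of calmodulin clones above the 95th percentile of the empty spots was 11 to 22 per array for control RNA and 9 to 23 for fadrozole RNA. On all 5 arrays and in both channels, 8 clones exceeded it, namely 27c21, 51a10, 51a21, 52c22, 53o02, 28p23, 52k21 and 51c15. Their mean was -0.18 ± 0.06, with -0.14, -0.27, -0.13, -0.17 and -0.21 on replicates 1 to 5, and 7 of the 8 had means below 0. Among the 924 tested clones of the whole array that met the same condition, the mean was 0.02 ± 0.04 and 51.4% were below 0. The other 21 calmodulin clones averaged -0.14 ± 0.07. A condition on both channels can favor clones that are not low in fadrozole, so these means describe the clones that met it.

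The clone 28p23, bright in both channels, did not pass the test. Its ratios were -0.26, -0.31, -0.05, -0.10 and 0.25, a mean of -0.10 ± 0.22 (adjusted p 0.708, limma). Control intensities were 948, 1363, 1486, 686 and 1399, and fadrozole intensities 1084, 1715, 3573, 1284 and 1029. It was below 0 on 4 arrays and above on replicate 5. Clone 53o02 gave -0.03, -0.04, -0.18, -0.47 and -0.34, a mean of -0.21 ± 0.19 (adjusted p 0.312), with values further from 0 on replicates 4 and 5.

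Across the 29 clones, the mean ratio was lower at a higher log2 median control intensity (r = -0.46, rho = -0.60), and without 51c15 the values were -0.64 and -0.74. Over all 8081 tested clones they were -0.12 and -0.17. These are descriptions across clones, which share arrays and targets and are not replicates, and the ratio contains the control intensity itself. The mean ratios from the first and the second spot of the 29 clones correlated at r = 0.77 (rho = 0.72), and 24 of the 29 had the same sign from both. The median absolute difference between duplicate spots was 0.24 for the calmodulin clones and 0.24 for all tested clones. The median SD over arrays was 0.22 and 0.20 in the same order, and the SD of the 29 means was 0.22. The SD over arrays describes single array values, while noise between arrays is smaller in a mean over arrays. The similar size of these SDs therefore does not show that the clones differed no more than noise between arrays would give.

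**Figure D3:**
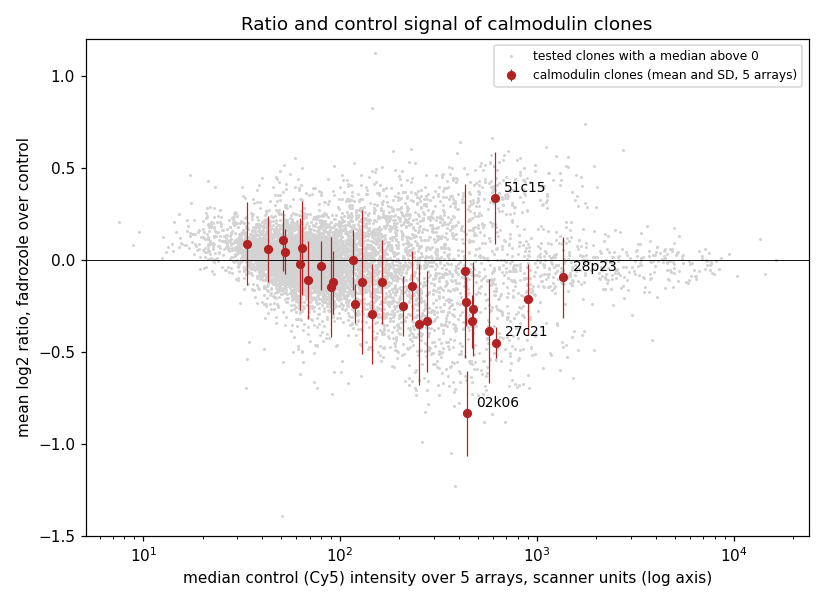
Mean log2 ratio of fadrozole over control against the median control intensity of each clone on a log axis, with calmodulin clones in red (error bars are the SD over 5 arrays) and the other tested clones with a median above 0 in grey. Dim calmodulin clones on the left lie near 0, most brighter ones lie below 0 down to -0.83 for 02k06, and 51c15 stands above 0 at 0.33.

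The source plates of the set were 02, 27, 28, 51 to 55, 60 and 61. Apart from plate 02, their medians lay between -0.01 and 0.03. The 28 calmodulin clones outside plates 02 and 04 averaged -0.13 ± 0.07, with -0.06, -0.24, -0.09, -0.13 and -0.14 on replicates 1 to 5. With each clone set against the median of its plate, they stood at -0.14 ± 0.07. Of the 28, 22 lay below the plate median on average, 8 below it on all 5 arrays and 1 above it on all 5. The 9 clones of plate 53 averaged -0.11 ± 0.09, the 7 of plate 51 averaged -0.05 ± 0.06, and the 4 of plate 52 averaged -0.17 ± 0.12. The 2 clones of plate 61 averaged -0.30 ± 0.11 and their mean was below 0 on all 5 arrays. The 27 clones described as calmodulin (CaM) averaged -0.12 ± 0.07, so the low mean did not rest on calm1b and Calmodulin A alone.

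The described clones whose 5 ratios came closest to the mean profile of the 28 were 55b08 (contactin-associated protein-like 2, an axonal adhesion protein) at a root mean square difference of 0.0433 and 14e12 (glucosamine-fructose-6-phosphate aminotransferase, an enzyme of amino sugar synthesis) at 0.0504. They were followed by 03d02 (no gene name) at 0.0565, 24e02 (myeloid leukemia factor 1) at 0.0593 and 27m11 (meu13, a protein of meiotic pairing) at 0.0638. The means of these 5 clones lay between -0.15 and -0.09, and 0 of them was called.

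Marker clones of the cell types that the tissue could hold gave the following means. The neuron markers averaged -0.13 ± 0.07 over 31 tested clones and were below 0 on all 5 arrays, with 4 called lower. Outside plates 02 and 04, 26 of them averaged -0.07 ± 0.07, and 0 were called. The ependymin clones, which mark the meninges of the fish brain, averaged -0.30 ± 0.26 over 33 clones and -0.15 ± 0.26 over the 16 outside these plates. Of the 33, 5 were called lower, and of the 16, 0 were called. Radial glia markers averaged 0.02 ± 0.06, muscle markers 0.04 ± 0.06, globins -0.19 ± 0.26 and pituitary hormones 0.02 ± 0.20. Outside plates 02 and 04, 9 radial glia clones averaged 0.03 ± 0.05, 17 globin clones -0.18 ± 0.27 and 2 pituitary clones 0.19 ± 0.35. All 37 muscle clones lay outside these plates. The part of the cell makeup in the calmodulin ratios was not tested.

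The proteins that calmodulin acts on were less well covered. The list of calmodulin kinases, drawn by words in the clone names, held 2 clones, a kinase subunit and a kinase inhibitor, and neither was called. The clone of camk2d (03g05), a subunit of the kinase CaMKII that calmodulin activates at synapses, gave -0.11, -0.08, -0.18, 0.14 and 0.03, a mean of -0.04 ± 0.13 (adjusted p 0.880, limma). The CaMKII inhibitor 1 clone (18o20) gave -0.09, -0.40, -0.08, -0.04 and 0.24, a mean of -0.07 ± 0.23. Calcineurin was represented by 0 clones.

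The list of other calmodulin binders, drawn by words in the clone names, held 14 clones with a median of -0.00076. By limma, 0 were called, with 1 higher and 2 lower at an unadjusted p under 0.05. Neurogranin, a neuronal protein that holds calmodulin at low calcium, had clones on both sides of 0. The clone 22f07 gave -0.09, -0.32, -0.10, -0.28 and -0.49, a mean of -0.25 ± 0.16 (adjusted p 0.192). The clone 02a05, named after its values were seen, gave -0.35, -0.14, 0.02, 0.53 and 0.20, a mean of 0.05 ± 0.33. The first was below 0 on all 5 arrays, and the second was above 0 on 3 although its plate 02 was shifted downward. The clone of this list with the smallest p was 02p18, at -0.27 ± 0.16 (adjusted p 0.158, limma). It came from plate 02 as well. Against the median of that plate, 02p18 stood at 0.08 ± 0.23 and was below the plate on 2 arrays. That clone is described as a peptide that activates adenylate cyclase and entered the list through the words of its name. So did 02f23 (adcyap1b), 18o07 (Abl-interactor 1) and the nesprin clones (spectrin repeat proteins), whose descriptions name no binding to calmodulin. The 1 higher clone was a nesprin-1 clone, 55n07, at 0.23 ± 0.18. The counts and the median thus describe the word list, not calmodulin binders alone.

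EF-hand relatives of calmodulin bind calcium through the same fold. Their list of 45 clones was drawn by words in the clone names, and not every clone on it need carry the fold. The median was 0.05. By limma, 0 of the 45 were called, with 6 higher and 4 lower at an unadjusted p under 0.05. The smallest p values belonged to clones of parvalbumin, a calcium buffer of fast muscle and of some neurons. Clone 14i09 gave 0.63, 0.33, 0.12, 0.28 and 0.60, a mean of 0.39 ± 0.22 (adjusted p 0.0729). Clone 27b07 gave 0.57, 0.67, -0.02, 0.38 and 0.82, a mean of 0.49 ± 0.32 (adjusted p 0.0751). Both passed the threshold under median centering and under a stricter filter on dim clones. The 4 lower clones (22p10, 22p09, 39m13 and 14g06) were parvalbumin as well, with means of -0.31 to -0.17. The 6 higher clones were parvalbumin except 27m12 (troponin C). The 23 parvalbumin clones together averaged 0.04 ± 0.06, with 9 of them below 0. The 8 tested clones with S-100 in their names, not all of them among the 45, averaged 0.06 ± 0.12. The 4 clones with troponin C in their names averaged 0.16 ± 0.19, among them 19a15 (troponin C-akin-1) at -0.07.

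The 27 clones of calcium channels, pumps and stores had a median of -0.06, and 0 were called by limma, with 1 in each direction at an unadjusted p under 0.05. The 11 clones of plasma membrane calcium pumps, which calmodulin stimulates to push calcium out of the cell, averaged -0.05 ± 0.07. The one with the smallest p, 52l23 (pump 2), gave -0.17, -0.26, -0.39, -0.41 and 0.04, a mean of -0.24 ± 0.18 (adjusted p 0.243). An L-type calcium channel clone, 53l03, gave 0.21, 0.20, 0.06, 1.57 and 0.27, a mean of 0.46 ± 0.62 (adjusted p 0.319, limma). Replicate 4 set most of that mean. Its control signal exceeded the empty spots on 0 arrays and its fadrozole signal on 2, and its duplicate spots gave 0.13 and 0.80. Another L-type clone, 18a03 (beta-2 subunit), averaged -0.12 ± 0.51, and the 5 calcium channel clones together averaged -0.01 ± 0.28. The 7 sarcoplasmic and endoplasmic reticulum pump clones averaged 0.01 ± 0.06, and the 3 ryanodine receptor clones -0.08 ± 0.20.

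**Figure D4:**
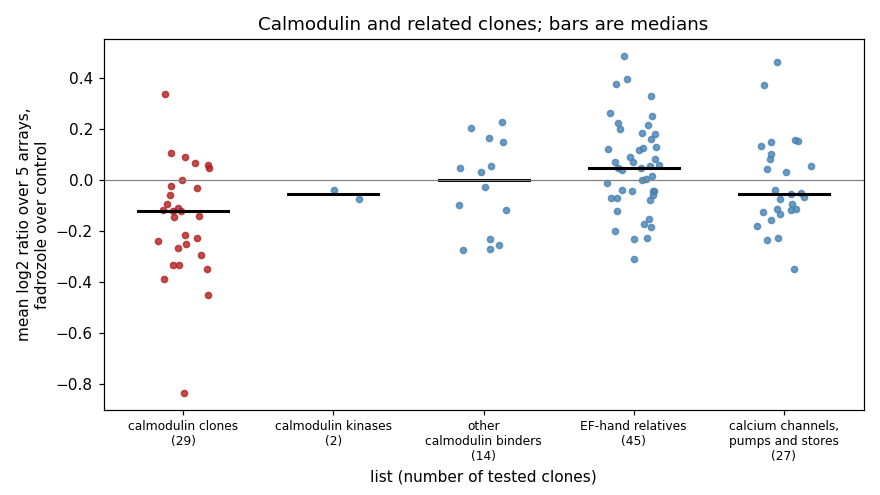
Mean log2 ratio over 5 arrays for each calmodulin clone (red) and each clone of the lists of partners and relatives (blue), with the median of each list as a bar. Calmodulin has the lowest median at -0.12, and the EF-hand relatives have a median of 0.05. The lists were drawn by words in the clone names, and that of calmodulin kinases holds a kinase subunit and a kinase inhibitor.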

How the data were processed

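Per the file headers, the authors' scanner files hold 1 linear intensity and 1 local background per spot and channel, from adaptive quantification, not background subtracted or corrected for crosstalk; mean or median is not stated. The authors also deposited log2-like values of unstated base and scale. Across spots they correlated at -0.996 to -1.00 with the scanner log2 ratios, with slopes of -0.81 to -0.73, so they run as control over fadrozole, and the sign was reversed before use. Their column medians were -0.0085, -0.0043, -0.039, -0.023 and 0.036.

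Background was corrected by normexp (offset 50), and each array was normalized by loess (span 0.3) in limma 3.58.1 (R 4.3.3). Control, empty and ignored spots (0 to 29 per array, 0 of them calmodulin) were given weight 0, and duplicates were averaged. Tested were clones above local background by 2 of its SDs in either channel, for a share of 0.5 or more of the usable spots, on 3 or more arrays. These were 8081 clones, among them all 29 of calmodulin. Mean log2 ratios were tested against 0 by limma, two-sided, with Benjamini-Hochberg adjustment and a threshold of 0.05. The p-values rest on the spread between the 5 arrays, each with 1 group of exposed fish. Differences between groups and noise between arrays are held together in it, and the spread among unexposed fish is left out. The source plate is the start of the clone name, and gene names are the files' descriptions.

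The calmodulin clones, the 5 partner lists (word patterns) and the alternatives were chosen with earlier results of these data known. Named clones were every calmodulin clone, in full those called, the 3 lowest and 3 highest and those opposite in sign to the median of the set, the 2 of smallest p of each partner list, and the 5 most similar profiles. The pipeline was tested on simulated data.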

Additional observations from a re-analysis of the deposited data

Results flagged for a closer look

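Of 53 clones checked, 3 had an array far from the other 4, where chance gives about 1 in 20. In each of them the array was replicate 4. The calmodulin clone 52k21 stood at 0.76 there and between -0.34 and -0.10 on the other arrays, and its mean was -0.06 ± 0.47. The calmodulin clone 53a11 stood at 0.18 there and between -0.28 and -0.16 elsewhere. The L-type calcium channel clone 53l03, whose control signal exceeded the empty spots on 0 arrays, stood at 1.57 there and between 0.06 and 0.27 elsewhere. Replicate 4 had the lowest median control intensity, 60.6 units, and the most spots ignored by the scanner software, 29, none of them a calmodulin spot. Any link between these and the 3 flagged clones was not tested.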

How the results depend on the processing

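The mean over the tested calmodulin clones, -0.15 over 29 in the main run, stayed below 0 in every alternative run. It was -0.24 over the 15 clones that a stricter filter on dim clones kept, so the set of clones differs there. With the empty-spot level subtracted in place of local background (chosen after seeing the data), it was -0.36 over 28 tested clones. With 1 replicate left out, it ran from -0.17 to -0.13. The 28 clones outside plates 02 and 04 averaged -0.13. Their mean was below 0 on 5 arrays in the main run. Under median centering it was -0.13 ± 0.11 and below 0 on 4 arrays. Those of the 28 still tested with the empty-spot level subtracted gave -0.32, and the mean was -0.15 to -0.10 with 1 replicate left out. The difference between calm1b and these 28 was -0.70 ± 0.22. It became -0.35 with each plate centered and ran from -0.78 to -0.65 with 1 replicate left out. Against those still tested with the empty-spot level subtracted, it was -1.07.

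Calls depended on the processing. The 2 calmodulin calls and the 162 calls over all clones both became 0 with no background subtraction, with plain subtraction, with the authors' deposited values, with each plate centered, without plates 02 and 04 and with the empty-spot level subtracted. By limma at an unadjusted p under 0.05, 10, 8, 7, 13, 12 and 4 calmodulin clones and 1187, 1043, 1126, 913, 742 and 879 clones in all passed in these 6 settings. Tested were 8081 clones in the first 4 of these, 7313 without plates 02 and 04 and 7893 with the empty-spot level subtracted. Of calmodulin, 29, 28 and 28 clones were tested in the same order. Calmodulin calls were 1 of 29 under median centering and 1 of 29 under print-tip loess, where 131 and 172 of the 8081 tested clones were called. Under the stricter filter, 4 of 15 tested calmodulin clones and 357 of all 3198 tested clones were called. With 1 replicate left out, 0 to 2 calmodulin clones and 0 to 174 clones were called, with 0 without replicate 2 or replicate 3, 1 in all without replicate 1 and 99 in all without replicate 5. The 0 partner calls became 2, both parvalbumin, under median centering and under the stricter filter. In the main run, 15 partner clones, from lists of 2, 14, 45 and 27 tested clones, passed an unadjusted p under 0.05 by limma. Of all 8081 tested clones, 1160 did so in that run. With quantification day as a random block, which sets replicate 1 apart, 211 clones and 2 calmodulin clones were called. The causes were not tested. No paired analysis was possible because the labels give 1 group of exposed samples, all set against 1 pool. On each array, 9 to 23 of the 29 calmodulin clones exceeded the empty spots in the fadrozole channel, and the ratios of the others are limited by this.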
